A study of Homo sapiens with 9 samples.

Results

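This comparison covers 6 of the 9 libraries of the series: 3 RNA-seq libraries of MOLM-13 cells that carried a hairpin against BCLAF1 (shBCLAF1) and 3 of MOLM-13 cells that carried a control hairpin (shCONTROL). MOLM-13 is an established human acute myeloid leukaemia line with a KMT2A fusion. Both groups had 4 days of doxycycline at 200 ng/µL, so the drug is common to both and its own effect is not measured. The labels give 1 hairpin name per group, one batch for all libraries, and no word on clones, pools or separate cultures, so the p-values measure only the spread between these samples, which may be technical. All 56541 genes of the deposited table entered, and 16961 had enough counts to be tested.

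BCLAF1 is a nuclear protein rich in arginine and serine that associates with mRNA-processing complexes together with its paralogue THRAP3. Of the gene groups described here, 2 stand for well-known programmes. In the integrated stress response, phosphorylation of eIF2 favours translation of the transcription factor ATF4, which switches on genes for amino acid uptake, amino acid synthesis and tRNA charging. In myeloid maturation, factors of the C/EBP family and PU.1 (SPI1) switch on genes for granule proteins, the phagocyte oxidase and surface receptors, while HOXA genes and MEIS1, targets of KMT2A fusions, are tied to the immature state.

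Totals were 33076169 to 35305650 estimated counts in shCONTROL and 34197754 to 36635268 in shBCLAF1, so a floor of 3 counts stood at 0.0819 to 0.0907 counts-per-million (CPM) of a library's total before scaling. Every replicate pair within a group correlated more closely across genes (Pearson's r of 0.981 to 0.987) than any pair of libraries from different groups (0.951 to 0.960), a description across genes that are not independent. The line's markers CD33, FLT3, HOXA9, MEIS1, KMT2A, SPI1, MPO, LYZ, CSF1R, ITGAM and PTPRC were above the floor in all 6 libraries, whereas CD14, CD34 and KIT were listed at 0 in each. Of the markers of other lineages, 7 of 11 for T and NK cells (CD3E, CD2 and CD8A among them), 5 of 7 for B cells (MS4A1, PAX5), 10 of 11 for red cells and megakaryocytes (HBB among them) and 9 of 12 for stroma and epithelium (EPCAM, COL1A1) were listed at 0 in all 6 libraries. NCAM1 and PECAM1 of these lists were well above the floor, at 77.2 to 109 and 188 to 265 CPM. For a gene with less RNA in these bulk samples, fewer cells that express it and less RNA per cell cannot be told apart.

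BCLAF1 (ENSG00000029363, chr6:136256627-136289846 in RefSeq's GRCh38.p14) measured 336, 340 and 323 CPM in shCONTROL and 120, 130 and 103 in shBCLAF1. All shBCLAF1 libraries lay under all shCONTROL libraries, at 35.3% of the control mean. THRAP3 measured 282, 264 and 245 CPM against 311, 293 and 231, so its groups overlapped (log2 fold change 0.08, SE 0.12, edgeR adjusted p 0.671).

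Across all genes, 2625 were higher in shBCLAF1 (15.5% of those tested) and 2859 lower (16.9%), 32.3% in either direction, at a Benjamini-Hochberg adjusted p under 0.05 in edgeR's quasi-likelihood test. In each of these genes the 3 shBCLAF1 values lay wholly outside the 3 shCONTROL values, so separate groups add nothing to the call of a gene. Most shifts were modest: 1460 genes called higher and 1535 called lower changed by less than 0.5 on the log2 scale. With genes at or under the floor throughout 1 group set aside, 21 genes rose and 36 fell by at least 2 on that scale. A single fit that also took in the 3 precipitation libraries called 1129 higher and 1318 lower, the setting that moved the counts most apart from a minimum fold.

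**Figure D1:**
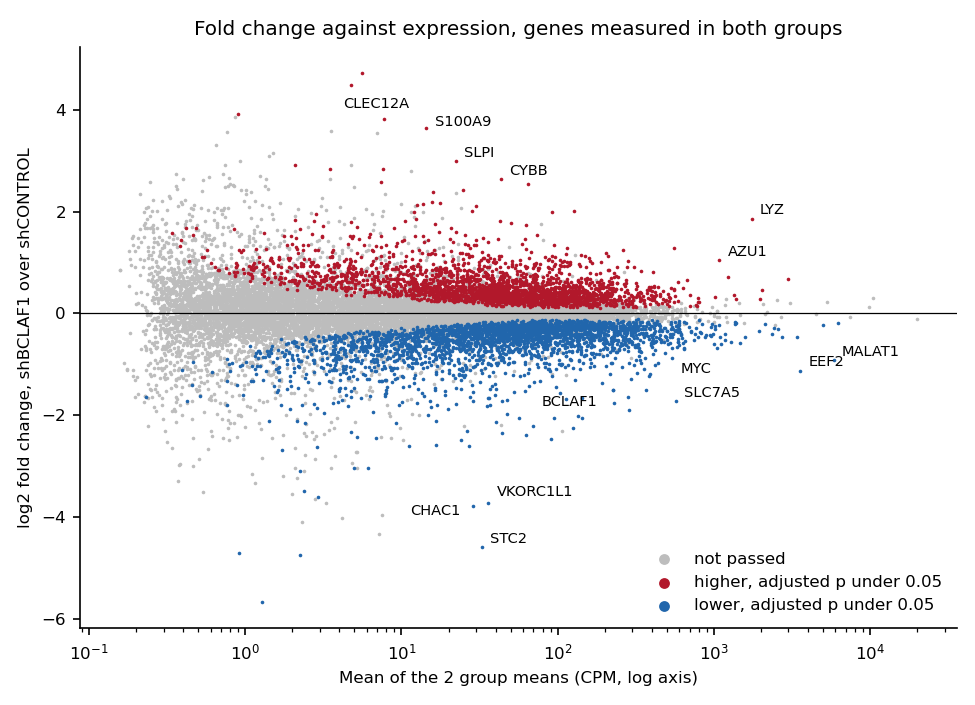
Each point is 1 tested gene above the floor in both groups: the mean of the group means in CPM (log axis) against the log2 fold change of shBCLAF1 over shCONTROL, in red or blue where the adjusted p was under 0.05. The genes furthest below 0 among those labelled are STC2, CHAC1 and VKORC1L1, and the furthest above are CLEC12A, S100A9 and SLPI.

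Genes of the amino acid branch of the stress response fell together. Of 44 tested members of a list of ATF4 and its targets, 42 were lower and 0 higher, with a median log2 fold change of -1.20 against 0.02 over all tested genes. The list took 0.832% to 0.915% of the counts in shCONTROL and 0.395% to 0.406% in shBCLAF1. The 2 members that did not pass were GDF15 and PSPH. GDF15, a stress cytokine, held 121, 160 and 150 counts against 0, 26 and 27 (adjusted p 0.0529 in edgeR), and PSPH, the last enzyme of serine synthesis, varied within groups (adjusted p 0.151 in edgeR).

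Promoter stretches of 5 members of the ATF4 and synthetase lists are shown. They were picked for carrying the letters of the site that ATF4 is known to bind with C/EBP partners. The letters searched were TGATGNAA, on both strands, from 250 bases before to 50 bases after each gene's start in RefSeq (GRCh38.p14). They occurred in 3.67% of 27305 promoters and in 1.76% of the promoters of tested genes. The share was 2.56% among all tested genes called lower and 1.23% among those called higher. Of the myeloid lists, 1 of 13 granule genes, 3 of 30 surface receptors and 0 of 4 oxidase genes held them. Among members with a promoter in the table, 7 of 35 in the ATF4 list and 6 of 19 aminoacyl-tRNA synthetases held them. Such a share is foreseeable in a list of ATF4 targets, and whether the letters bear on the falls was not tested. For the members of each list with the lowest folds and a match wholly before the start, 3 and 2 of them, the 250 bases before the start are given 5′ to 3′ on the gene's strand, with the match in capitals. CHAC1 lies at chr15:40953221-40953470 on the plus strand. ASNS lies at chr7:97872409-97872658, BCAT1 at chr12:24949102-24949351, AARS1 at chr16:70289507-70289756 and IARS1 at chr9:92293698-92293947, all on the minus strand.
CHAC1: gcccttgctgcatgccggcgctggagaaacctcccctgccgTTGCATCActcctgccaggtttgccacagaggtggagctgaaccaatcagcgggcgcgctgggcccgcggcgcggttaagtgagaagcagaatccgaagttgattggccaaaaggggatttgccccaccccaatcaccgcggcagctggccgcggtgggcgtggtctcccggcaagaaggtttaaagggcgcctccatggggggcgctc
ASNS: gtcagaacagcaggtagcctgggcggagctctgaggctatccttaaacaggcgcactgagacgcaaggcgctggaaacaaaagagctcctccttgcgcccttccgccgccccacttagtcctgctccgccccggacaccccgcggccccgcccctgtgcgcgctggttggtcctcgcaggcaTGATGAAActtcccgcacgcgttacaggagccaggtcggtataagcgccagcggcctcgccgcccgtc
BCAT1: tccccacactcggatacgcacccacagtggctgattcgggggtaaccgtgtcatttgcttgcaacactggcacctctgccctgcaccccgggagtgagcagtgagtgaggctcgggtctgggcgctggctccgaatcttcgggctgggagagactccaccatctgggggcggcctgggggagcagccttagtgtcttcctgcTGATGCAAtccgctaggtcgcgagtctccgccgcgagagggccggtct
AARS1: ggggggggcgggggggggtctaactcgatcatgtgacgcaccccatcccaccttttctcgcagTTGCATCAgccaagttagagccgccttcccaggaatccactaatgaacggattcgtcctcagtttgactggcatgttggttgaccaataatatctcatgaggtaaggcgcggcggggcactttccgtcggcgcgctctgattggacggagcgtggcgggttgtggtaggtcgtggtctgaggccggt
IARS1: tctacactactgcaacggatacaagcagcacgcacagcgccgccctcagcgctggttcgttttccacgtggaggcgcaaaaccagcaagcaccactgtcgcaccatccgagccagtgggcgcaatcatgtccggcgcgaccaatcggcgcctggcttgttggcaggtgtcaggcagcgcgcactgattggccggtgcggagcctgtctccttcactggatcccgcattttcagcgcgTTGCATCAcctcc
The match ended 202 bases before the start in CHAC1, 61 in ASNS, 41 in BCAT1, 180 in AARS1 and 6 in IARS1, counting the base next to the start as 1. In CHAC1, AARS1 and IARS1 it was the reverse complement of the letters searched. The letters TTGCNNAA, of C/EBP factors, were searched in the same way. They occurred in 7.19% of the promoters of tested genes, in 4 of 13 granule genes and in 5 of 30 surface receptors. Counts were 0 of 4 oxidase genes, 4 of 35 genes of the ATF4 list and 1 of 19 synthetases. A match of either kind is a description of the sequence and not a measured binding site.

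Transcription factors of this response fell as a group, with 8 of 8 lower and log2 fold changes of -1.85 to -0.60. ATF4 measured 578, 593 and 564 CPM in shCONTROL and 309, 279 and 300 in shBCLAF1 (log2 fold change -0.97, SE 0.05, edgeR adjusted p 1.64e-04). DDIT3, which encodes the pro-apoptotic factor CHOP, measured 17.6, 32.2 and 23.3 CPM against 5.70, 6.93 and 7.68 (log2 fold change -1.85, SE 0.24, edgeR adjusted p 0.00252). In both genes each shBCLAF1 library lay below each shCONTROL library, as in every gene called lower. These 2 factors were named after their values had been seen, as were ASNS, PHGDH and PSAT1 among the enzymes, BCAT1 and IARS1 among the promoters and SLC6A9 among the transporters.

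Amino acid transporters followed, with 9 of 9 lower. SLC7A5, which encodes the leucine transporter LAT1, measured 859, 898 and 864 CPM against 270, 256 and 265 (log2 fold change -1.73, SE 0.04, edgeR adjusted p 7.97e-05). SLC1A5, a glutamine transporter, measured 438, 447 and 452 CPM against 205, 200 and 192 (log2 fold change -1.16, SE 0.04, edgeR adjusted p 8.17e-05). The replicates of both transporters lay within a narrow band, and the groups were far apart. SLC6A9, a glycine transporter, held 349, 460 and 360 counts in shCONTROL and was listed at 0 in all 3 shBCLAF1 libraries.

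Enzymes of amino acid and one-carbon metabolism were lower in 14 of 15 cases, with log2 fold changes of -2.25 to -0.75. ASNS, asparagine synthetase, measured 132, 177 and 147 CPM against 37.9, 39.9 and 32.5, and PHGDH, the first enzyme of serine synthesis, 190, 236 and 226 against 72.2, 62.1 and 71.0. PSAT1, the next enzyme of that pathway, measured 344, 370 and 342 CPM against 114, 107 and 92.0. The log2 fold changes of ASNS, PHGDH and PSAT1 were -2.05, -1.67 and -1.75, with separate groups as in every called gene.

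Several secreted and stress-regulating products of the list fell as well. STC2, a secreted glycoprotein, measured 53.1, 73.3 and 61.0 CPM against 2.56, 2.86 and 2.37, so 4.16% of the control remained. CHAC1, which degrades glutathione, measured 52.9, 56.0 and 50.8 CPM against 5.15, 4.23 and 2.12. INHBE, an inhibin subunit, fell by 2.45 on the log2 scale (SE 0.20, edgeR adjusted p 5.24e-04). SESN2, a leucine sensor upstream of mTORC1, measured 88.0, 96.9 and 89.5 CPM against 22.4, 22.3 and 21.7 (log2 fold change -2.05, SE 0.05, edgeR adjusted p 7.97e-05). VEGFA, the vascular growth factor, measured 305, 382 and 320 CPM against 115, 113 and 125. None of these 5 genes had overlapping groups, as was so for every called gene.

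The enzymes that charge tRNAs with amino acids were also lower, in 17 of 23 cases, with 2 higher and a median log2 fold change of -0.49. GARS1, the glycyl enzyme, measured 387, 460 and 408 CPM against 178, 166 and 171 (log2 fold change -1.28, SE 0.07, edgeR adjusted p 2.06e-04). AARS1, YARS1 and MARS1, for alanine, tyrosine and methionine, had log2 fold changes of -0.98, -0.97 and -0.79. The most abundant members that did not pass were KARS1 and RARS1, for lysine and arginine, with log2 fold changes of -0.19 and -0.0017. QARS1, for glutamine, was higher by 0.25, and its call was lost in the fit with the precipitation libraries, while FARSA, a phenylalanyl subunit with 0.21, lost its call in the same fit, without the filter on low counts and without any 1 of the 6 libraries.

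**Figure D2:**
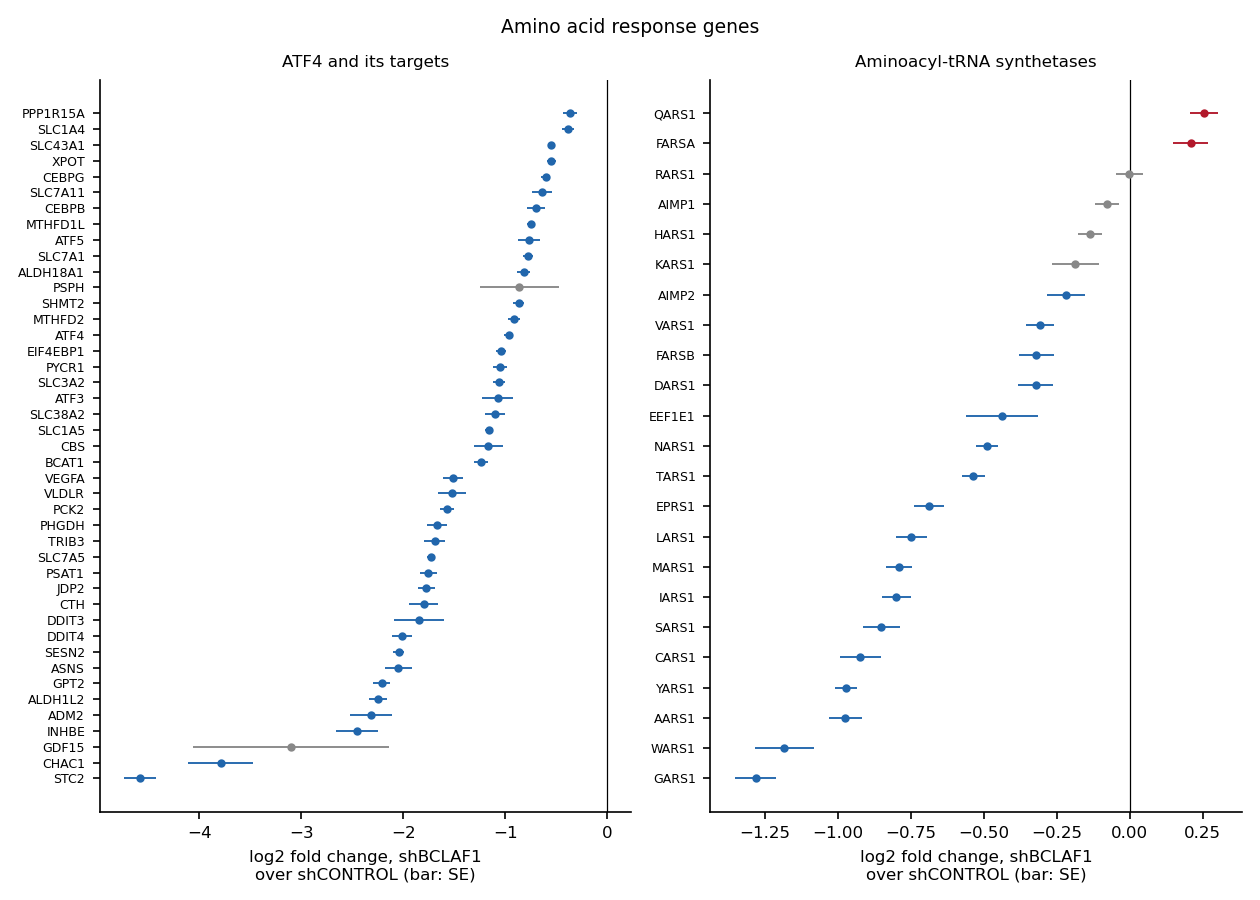
Log2 fold change of shBCLAF1 over shCONTROL for each tested gene of the ATF4 list (left) and of the cytosolic aminoacyl-tRNA synthetases with their accessory proteins (right); bars are standard errors, red and blue mark an adjusted p under 0.05, and genes listed at or under the floor throughout 1 group are left out. Nearly all points lie left of 0, with STC2 at -4.59 and GARS1 at -1.28 as the lowest of each panel.

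Chaperones of the endoplasmic reticulum, which respond to a different arm of protein stress, did not move as 1 group: 11 of 29 were higher and 5 lower, with a median of 0.12, and the 11 became 7 without shBCLAF1 replicate 2 and 3 in the fit with the precipitation libraries. HERPUD1, which acts in the degradation of misfolded proteins and is also known as an ATF4 target, fell by 0.99 on the log2 scale (edgeR adjusted p 3.13e-04). DNAJC3, a co-chaperone that inhibits eIF2 kinases, measured 154, 154 and 147 CPM against 283, 276 and 265, all shBCLAF1 libraries being higher. HSPA5, the main chaperone of this compartment, measured 453, 384 and 442 CPM against 455, 441 and 441, and its groups overlapped.

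Most tested genes for granule proteins and all those for the phagocyte oxidase were higher, whereas surface receptors were called in both directions. In the list of granule and secreted antimicrobial proteins, 19 of 24 tested members were higher and 1 lower, with a median log2 fold change of 0.76. The list held 0.704% to 0.788% of the counts in shCONTROL and 1.33% to 1.38% in shBCLAF1. LYZ, which encodes lysozyme, measured 810, 695 and 757 CPM against 2923, 2771 and 2520 (log2 fold change 1.86, SE 0.08, edgeR adjusted p 1.19e-04). S100A9, a calcium-binding alarmin, went from 2.13, 1.90 and 2.39 CPM to 27.8, 25.8 and 26.7, a fold of 12.5. BPI, which kills Gram-negative bacteria, measured 10.8, 11.4 and 11.7 CPM against 47.4, 47.9 and 41.6. The groups of these 3 genes were separated by several times their spread.

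Other abundant granule products had smaller folds or did not pass. AZU1, azurocidin, measured 696, 691 and 734 CPM against 1388, 1408 and 1592 (log2 fold change 1.05, SE 0.06), and SRGN, the core protein that packs granules, 2418, 2167 and 2303 against 3961, 3663 and 3297. PRTN3, proteinase 3, measured 2454, 1991 and 2475 CPM against 2796, 2686 and 2814 (log2 fold change 0.26, edgeR adjusted p 0.0700), and MPO, myeloperoxidase, measured 85.7, 79.5 and 101 against 83.7, 80.9 and 83.6 (adjusted p 0.454 in edgeR). Granule genes of late neutrophils, LTF, LCN2, MMP8 and OLFM4, were listed at 0 in all 6 libraries, as were the defensin genes DEFA1 and DEFA4. PGLYRP1, a peptidoglycan-binding protein, was the lower member, with 18, 24 and 15 counts against 0 in all 3. That is at least 6.81-fold lower against the floor per library, a bound for counting error only. The call of PGLYRP1 was lost with the replicate number as a block.

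All 7 subunits and partners of the phagocyte oxidase, the enzyme that makes superoxide, were higher. CYBB, its catalytic subunit, measured 13.1, 11.0 and 11.8 CPM against 78.7, 76.8 and 69.2, a fold of 6.24. CYBA, the partner of CYBB in the membrane, and the cytosolic subunits NCF4 and NCF1 had log2 fold changes of 0.65, 0.69 and 0.48. NCF1 has near-identical pseudogene copies, so its counts are uncertain. RAC2, the GTPase of the complex, had 0.30 and lost its call in the fit with the precipitation libraries. CYBC1, a chaperone of the enzyme, had 0.36 and lost its call when the replicate number was a block, as well as without shCONTROL replicate 1 or 3.

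Surface receptors were mixed, with 19 of 41 higher and 7 lower. The 19 became 12, and the 7 became 2, in the fit with the precipitation libraries, and the 7 became 4 without shBCLAF1 replicate 2 or 3. CLEC12A, an inhibitory lectin of myeloid cells, measured 0.819, 0.920 and 1.33 CPM in shCONTROL and 14.9, 15.6 and 13.1 in shBCLAF1. THBD, thrombomodulin, measured 39.5, 34.6 and 36.8 CPM against 150, 146 and 145 (log2 fold change 1.99, SE 0.06, edgeR adjusted p 7.97e-05). CD93, a lectin of monocytes and progenitors, measured 82.9, 82.5 and 80.0 CPM against 166, 160 and 152. CX3CR1, the fractalkine receptor, moved the other way, with 8.68, 9.42 and 8.30 CPM against 1.91, 1.40 and 1.61, and ITGAL, an integrin chain, went from 751, 820 and 762 to 545, 532 and 533 (lost in the fit with the precipitation libraries). The receptors SIRPA and CSF3R were the most abundant that did not pass.

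**Figure D3:**
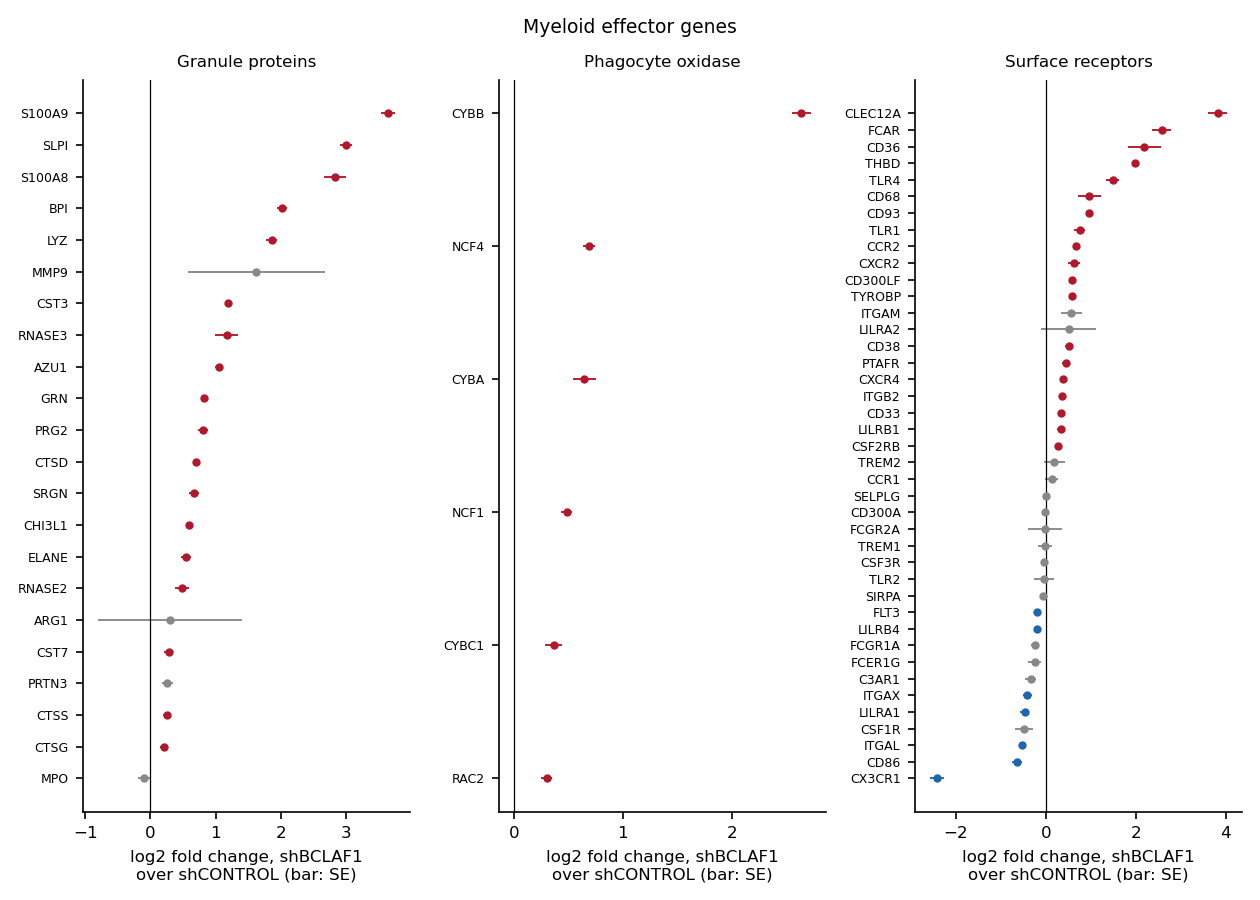
Log2 fold change of shBCLAF1 over shCONTROL for the tested genes of 3 myeloid lists, 1 oxidase gene left out, drawn as in the plot of amino acid response genes. In the granule and oxidase panels the coloured points all lie right of 0. The 2 granule genes called but at or under the floor throughout 1 group are not drawn, among them PGLYRP1, the 1 called lower. In the receptor panel the coloured points run from CX3CR1 at -2.42 to CLEC12A at 3.82.

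Genes of the lysosome and of the proteasome, which degrade proteins, were also higher more often than lower. Lysosomal genes were higher in 21 of 37 cases and lower in 0, with a median of 0.42. GM2A, an activator of lipid breakdown, measured 57.7, 53.9 and 57.1 CPM against 119, 117 and 113, and CTSD, cathepsin D, 169, 167 and 165 against 271, 259 and 284. Proteasome genes were higher in 24 of 34 cases, with a median of 0.31, but this count was 7 in the fit with the precipitation libraries. PSMB2, a core subunit, measured 135, 121 and 130 CPM against 203, 189 and 188. PSMA3, another core subunit, was the 1 lower gene, with 127, 114 and 126 CPM against 58.1, 55.0 and 54.3. The groups of PSMB2 and of PSMA3 did not overlap, in opposite directions.

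Myeloid transcription factors did not shift as 1 group, with 10 of 32 higher and 9 lower (6 and 5 in the fit with the precipitation libraries). Shares higher and lower were 31.25% and 28.125%, beside 20.3% and 21.1% in all tested protein-coding genes. CEBPE, which drives terminal granulocyte maturation, measured 1.81, 2.21 and 1.58 CPM against 13.4, 12.3 and 14.7, and CEBPD, another factor of the family, 70.6, 69.4 and 76.2 against 130, 123 and 160. CEBPA, the family's main factor in progenitors, measured 447, 428 and 462 CPM against 445, 431 and 485 and did not pass (edgeR adjusted p 0.777). CEBPB and CEBPG were lower, with log2 fold changes of -0.69 and -0.60, so this family held calls in both directions. SPI1 was higher by 0.37, a call lost in the fit with the precipitation libraries, and BATF3, a factor of dendritic cells, fell by 1.81 (edgeR adjusted p 1.81e-04).

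Targets of KMT2A fusions were lower in 17 of 28 cases and higher in 4, with a median of -0.37. Of the HOXA genes of the list, 8 of 9 fell, with log2 fold changes of -1.94 to -0.43. HOXA7 measured 15.5, 14.2 and 15.1 CPM against 5.70, 5.33 and 5.28 (log2 fold change -1.46, SE 0.08, edgeR adjusted p 2.14e-04), and the far more abundant HOXA9 measured 104, 102 and 95.9 against 75.3, 72.5 and 77.0. MEIS1, the cofactor of HOXA9, went from 84.9, 90.2 and 85.0 CPM to 49.4, 47.4 and 46.2. MYC, the growth-promoting factor, measured 710, 686 and 712 CPM against 389, 375 and 384, and BCL2, which blocks apoptosis, 410, 447 and 413 against 237, 243 and 230. The groups of all 5 genes were apart, as in every called gene. LMO2, a stem-cell transcription adaptor, was among the higher members, with 75.3, 82.6 and 83.8 CPM against 163, 153 and 151. KMT2A itself had a log2 fold change of -0.41 and lost its call in the fit with the precipitation libraries.

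Most ribosomal protein genes were lower. Of 85 tested genes for cytoplasmic ribosomal proteins and their relatives, 72 were lower and 0 higher, with a median of -0.42, but 17 were lower in the fit with the precipitation libraries. The list fell from 3.88% to 3.90% of the counts in shCONTROL to 2.87% to 3.05%. RPS16, of the small subunit, measured 807, 777 and 791 CPM against 498, 467 and 498, and RPL22L1, a paralogue of RPL22, 82.7, 79.0 and 81.5 against 37.0, 34.8 and 31.4. Many of these genes have processed pseudogenes that can share their reads. Translation factors were lower in 16 of 38 cases (6 in the fit with the precipitation libraries) and higher in 2, with a median of -0.18. That is 42.1% lower and 5.26% higher, beside 32.1% and 23.9% in protein-coding genes with a mean above 105 CPM. EEF2, the factor that moves the ribosome along the mRNA, measured 4868, 4963 and 4766 CPM against 2392, 2197 and 2107, or 45.9% of the control.

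Genes for building ribosomes were lower in 26 of 45 cases and higher in 1, and the 26 became 10 in the fit with the precipitation libraries. NPM1, a nucleolar chaperone, measured 570, 553 and 563 CPM against 285, 282 and 266 (log2 fold change -1.02, SE 0.04, edgeR adjusted p 9.73e-05). Among MYC and its network 6 of 19 members were lower and 4 higher, with a median of 0.03, near that of all tested genes. Shares lower and higher were 31.6% and 21.1%, beside 21.1% and 20.3% in all tested protein-coding genes. ODC1, the polyamine enzyme and a known MYC target, went from 184, 164 and 177 CPM to 111, 106 and 102.

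Replication genes were lower more often than higher, and mitotic genes were called in both directions. Of 45 genes of DNA replication, 23 were lower and 2 higher, with a median of -0.30 (15 lower in the fit with the precipitation libraries). PCNA, the sliding clamp of DNA polymerase, measured 303, 272 and 292 CPM against 153, 148 and 143, and MCM6, a subunit of the replicative helicase, 271, 253 and 265 against 152, 144 and 152. Of 40 mitotic genes, 9 were higher and 8 lower (22.5% and 20.0%), near the 20.3% and 21.1% of all tested protein-coding genes. Total counts in place of TMM gave 14 higher, while leaving out shBCLAF1 replicate 1 or 2 gave 4. FOXM1, a factor for mitotic genes, measured 96.3, 97.6 and 94.9 CPM against 147, 138 and 134. The inhibitor CDKN1A had a log2 fold change of 0.37, lost in the fit with the precipitation libraries, and CDKN2A was listed at 0 in all 6 libraries. MKI67, the usual proliferation marker, measured 708, 683 and 717 CPM against 817, 788 and 731 and did not pass (edgeR adjusted p 0.0726).

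**Figure D4:**
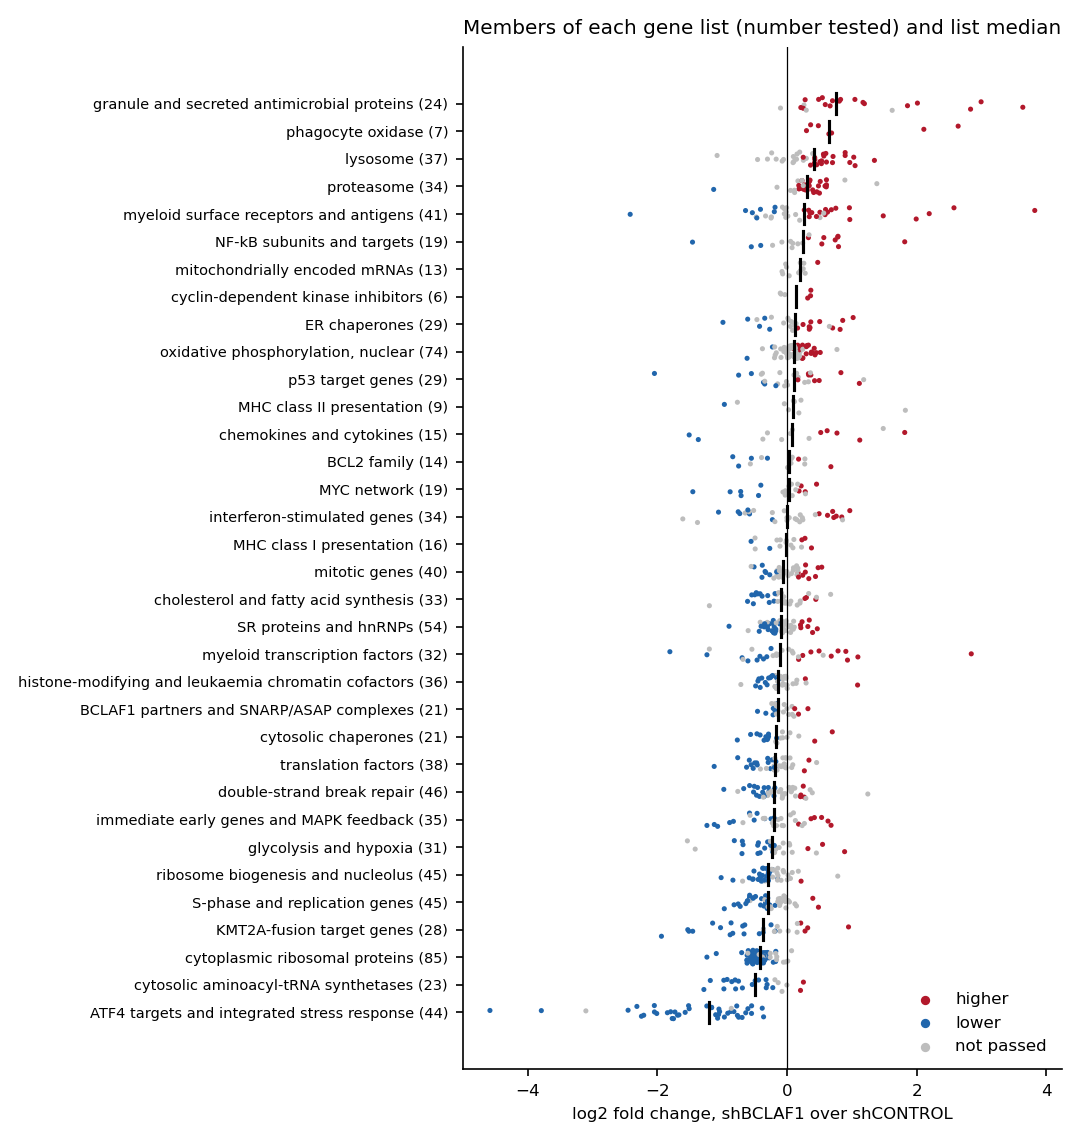
Log2 fold change of shBCLAF1 over shCONTROL for the tested members of 34 gene lists (number tested in brackets, jittered vertically), with the list median as a black bar; red and blue mark an adjusted p under 0.05, and genes at or under the floor throughout 1 group are not drawn but count in the median. The ATF4 list has the lowest median, -1.20, and the granule list the highest, 0.76.

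Lists of stress, signalling and immune genes held calls in both directions, as did all tested protein-coding genes (20.3% higher and 21.1% lower). Beside these, shares higher and lower were 27.6% and 20.7% in p53 targets and 42.1% and 15.8% in NF-kB genes. In interferon-stimulated genes they were 20.6% and 23.5%. Of 29 p53 targets, 8 were higher and 6 lower (5 higher in the fit with the precipitation libraries, and 3 lower without shCONTROL replicate 1 or 2 or shBCLAF1 replicate 2). Among the higher were PLK2, a kinase, with 5.85, 5.25 and 5.65 CPM against 11.6, 11.9 and 12.8, and among the lower BBC3, which encodes the apoptosis activator PUMA, with 23.6, 27.4 and 26.7 against 14.6, 14.3 and 17.5. Of 19 NF-kB genes, 8 were higher and 3 lower. CXCL8, the neutrophil chemokine, measured 22.3, 18.1 and 16.4 CPM against 72.6, 71.8 and 55.8 (log2 fold change 1.82, SE 0.15, edgeR adjusted p 5.71e-04), while TRAF1, an NF-kB target and signalling adaptor, fell by 1.46. CCL5, a chemokine for T cells, also fell, from 275, 307 and 252 CPM to 116, 101 and 106. Of 34 interferon-stimulated genes, 7 were higher and 8 lower, and the 8 became 4 without shCONTROL replicate 1 or shBCLAF1 replicate 2. STAT2, which carries the interferon signal to the nucleus, measured 51.7, 54.1 and 53.9 CPM against 103, 84.3 and 99.6, whereas IFIT2, an RNA-binding antiviral protein, went from 33.7, 41.3 and 29.5 to 17.3, 17.6 and 15.3.

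BCLAF1's own field, RNA processing, showed small shifts. Of 21 tested partners of BCLAF1 in its splicing and export complexes, 3 were higher and 6 lower, and the 6 became 0 in the fit with the precipitation libraries and 2 without shCONTROL replicate 1 or 3 or shBCLAF1 replicate 2. Of 54 SR proteins and hnRNPs, 7 were higher and 20 lower, and leaving out 1 library gave 11 to 16 lower, with 3 in the fit with the precipitation libraries. HNRNPF, a splicing regulator, measured 349, 340 and 363 CPM against 280, 278 and 259, and SRSF4, an SR protein, was higher by 0.32 on the log2 scale. Repair genes for double-strand breaks were lower in 17 of 46 cases and higher in 4 (6 lower in the fit with the precipitation libraries). Shares lower and higher were 37.0% and 8.70% in repair genes and 37.0% and 13.0% in SR proteins and hnRNPs. In the partners of BCLAF1 they were 28.6% and 14.3%. They were 21.1% and 20.3% in all tested protein-coding genes, and 32.1% and 23.9% in those with a mean above 105 CPM. In repair genes and in SR proteins and hnRNPs the shares lower were above both values and the shares higher below both. These references were not matched to the levels of the members, and the part of abundance was not tested. PRKDC, the DNA-dependent kinase of end joining, measured 3204, 3158 and 3172 CPM against 2335, 2345 and 2200, and PARP1, which senses breaks, 381, 365 and 405 against 236, 238 and 250.

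Metabolic lists held small shifts. Nuclear genes of oxidative phosphorylation were higher in 20 of 74 cases and lower in 2, but the 20 became 2 in the fit with the precipitation libraries and 8, 9, 10 and 11 without shBCLAF1 replicate 1, shCONTROL replicate 2, shCONTROL replicate 3 and shBCLAF1 replicate 2. Shares higher and lower were 27.0% and 2.70%, beside 20.3% and 21.1% in all tested protein-coding genes. Glycolysis and hypoxia genes were lower in 15 of 31 cases and higher in 3, with 7 lower in the fit with the precipitation libraries. Here the shares higher and lower were 9.68% and 48.4%. HK2, a hexokinase, measured 130, 127 and 128 CPM against 94.5, 90.9 and 96.3, while SLC2A1, the glucose transporter GLUT1, rose from 39.4, 34.9 and 37.2 to 70.6, 69.9 and 66.1. Sterol and fatty acid genes were lower in 12 of 33 cases and higher in 3, with 3 lower in the fit with the precipitation libraries. That is 36.4% lower and 9.09% higher, beside 32.1% and 23.9% in protein-coding genes with a mean above 105 CPM. ACACA, the first enzyme of fatty acid synthesis, measured 266, 261 and 272 CPM against 182, 184 and 183. IDH1, the cytosolic isocitrate dehydrogenase, counted in the list of chromatin cofactors for its leukaemia mutations, measured 101, 101 and 103 CPM against 226, 220 and 203.

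The most extreme genes were named from those with at least 10 counts in every library, 10 CPM in the higher group and groups that did not overlap. They were in part members of these lists and in part of none. VKORC1L1, an enzyme that recycles vitamin K, measured 57.9, 67.1 and 74.9 CPM in shCONTROL and 6.27, 3.24 and 5.68 in shBCLAF1. G0S2, an inhibitor of fat breakdown, measured 18.5, 19.2 and 19.6 CPM against 3.11, 2.64 and 3.64. RGS16 and RGS1, which shorten signals from G protein-coupled receptors, had log2 fold changes of -2.38 and -2.35, RGS16 going from 93.0, 133 and 88.2 CPM to 20.1, 18.3 and 21.9. The falls of VKORC1L1, G0S2, RGS16 and RGS1 were seen in every library, as the naming rule required. SNHG16, a host gene of small nucleolar RNAs, spread widely within both groups, at 202, 168 and 93.0 CPM against 16.0, 43.9 and 24.4. BTF3L4 fell by 2.60 with an adjusted p of 0.0395 in edgeR, a call lost in 6 alternatives, with shCONTROL replicate 3 at 21.6 CPM and shBCLAF1 replicate 3 at 15.9 CPM.

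On the other side, MEFV, which encodes the inflammasome protein pyrin, measured 8.24, 8.16 and 6.83 CPM against 42.8, 38.9 and 42.8. MPEG1, a pore-forming protein of macrophages, measured 6.40, 7.09 and 5.73 CPM against 30.6, 30.5 and 25.2, and FCAR, the receptor for immunoglobulin A and a member of the receptor list, 2.19, 1.60 and 2.54 against 14.4, 12.4 and 11.0. These 3 genes of myeloid cells had groups far apart, and the naming rule required groups that did not overlap. SH3BP5, an adaptor of the kinase BTK, measured 4.79, 5.09 and 5.22 CPM against 22.2, 22.3 and 22.4. CD36, a scavenger receptor of the receptor list, had a log2 fold change of 2.20 and lost its call in the fit with the precipitation libraries. RRBP1 and AHDC1 had log2 fold changes of 2.55 and 2.38, but their shBCLAF1 libraries were uneven (33.9, 143 and 154 CPM for RRBP1, and 11.1, 29.7 and 38.7 for AHDC1), and each lost its call in 4 alternatives. By abundance, the largest falls were those of MALAT1, a nuclear long noncoding RNA, from 7399, 8640 and 6864 CPM to 3410, 4670 and 4105, and of the translation factor EEF2, and SLC44A1, a choline transporter, was among the largest rises, from 326, 330 and 323 to 839, 818 and 719.

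**Figure D5:**
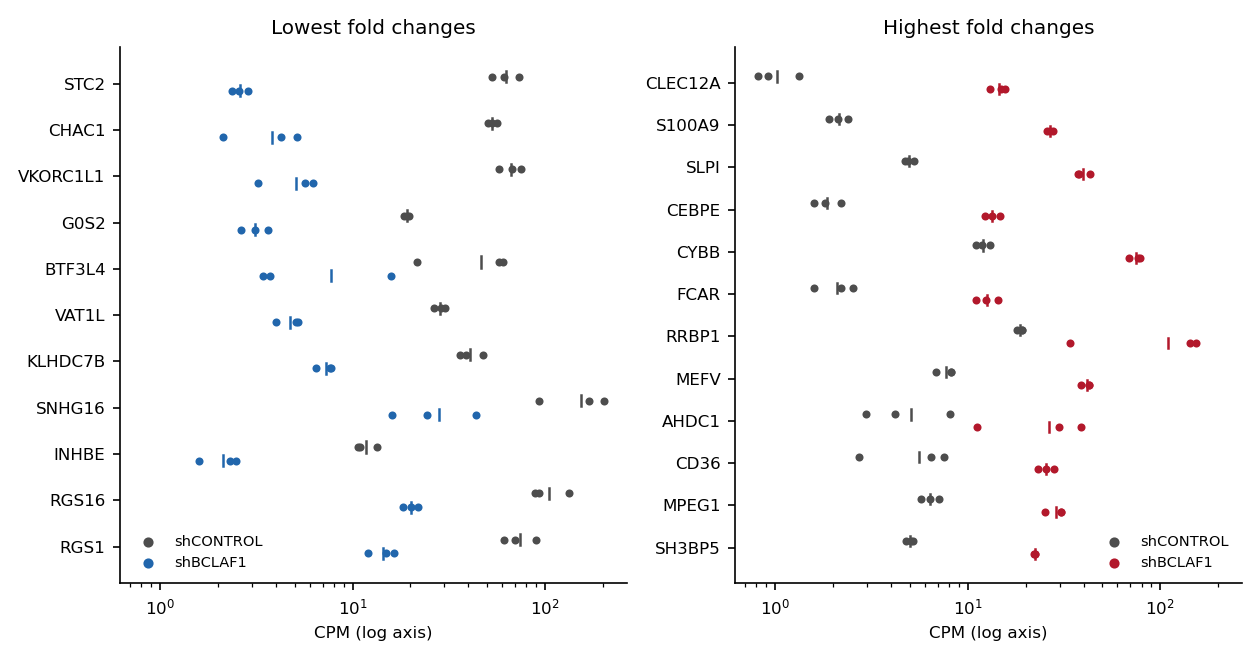
CPM (log axis) in each library for 11 of the 12 most reduced genes and the 12 most raised genes under the naming rule, by log2 fold change; points are libraries and short bars group means. The shCONTROL points (grey) and the shBCLAF1 points (coloured) do not overlap in any gene, because the naming rule required it. BTF3L4, RRBP1 and AHDC1 have the widest shBCLAF1 spread.

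A few named genes were listed at 0 throughout 1 group, which in this table does not show that no RNA was present. The folds given against the floor are therefore bounds for counting error only. RIGI, a sensor of viral RNA, held 197, 295 and 164 counts in shCONTROL and 0 in each shBCLAF1 library, at least 78.4-fold lower against the floor of 3 counts per library, and its call was lost in the fit with the precipitation libraries. DUSP8, a phosphatase of stress kinases, held 200, 246 and 176 counts against 0, at least 74.2-fold lower. CSF1, the macrophage growth factor, held 115, 160 and 109 against 0, at least 45.8-fold lower. Going the other way, CD5, a T-cell receptor regulator, was at 0 in shCONTROL and at 61, 80 and 80 counts in shBCLAF1. Of the other T and NK cell markers, TRAC fell by 0.98 on the log2 scale while CD3E, CD2 and CD8A were listed at 0. Summed over that marker list, 0.0137% to 0.0148% of the counts in shCONTROL and 0.0103% to 0.0118% in shBCLAF1 were found, and the part of other cell types in the result was not tested.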

How the data were processed

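RNA-seq of 3 shCONTROL and 3 shBCLAF1 samples of MOLM-13 cells was compared, as ribosomal RNA-depleted stranded libraries per the labels' protocols. Estimated counts, not normalized, were deposited by the authors as 1 table with a line per gene; whole-number values of 1 were rarer (6 to 15 genes per RNA-seq library) than values of 2 (156 to 177). STAR 2.7.11b, StringTie 2.2.3 and hg38 are named in the submitters' processing notes, without their roles; annotation and strand setting are not given in the sources used here. Of 56541 genes, 39048 had a symbol; 56012 identifiers matched the gene name table, which filled 10 symbols. The 1 entry naming no gene (2.84% to 3.75% of the counts of its library) was left out.

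The fit used edgeR 4.0.16 in R 4.3.3: the default filter on low counts, TMM scaling, a prior count of 0.125, group as the single term, the quasi-likelihood F-test, and Benjamini-Hochberg adjustment over 16961 genes with a threshold of 0.05. Standard errors come from the log2 fold change and its F statistic. CPM are counts over TMM-scaled library sizes. Depth bounds the precision: 3 counts were the floor, and floors cover counting error only. Data were simulated with these depths and the same spread for every gene (17030 genes). Of genes raised 4-fold 50 of 50 were recovered, and of genes raised 2-fold 36 of 50. At a fold of 0.25 it was 50 of 50 and at 0.5 it was 40 of 50, with 10 calls among unchanged genes. Spread differed between genes in the real data, so these rates do not measure recovery or false calls there.

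The members and the 38 gene lists were chosen with earlier results of these data known. The naming rule took BCLAF1 and THRAP3. Of genes with a symbol, an adjusted p under 0.05, at least 10 counts in each library, a mean of 10 CPM in the higher group and separate groups, it took the 12 highest and 12 lowest folds and the 6 largest rises and falls in CPM. Per list it took up to 4 members in each direction by adjusted p and the 2 most abundant that did not pass. It gave 312 genes, of which 237 passed, 143 of them in every alternative that tested them, and the text gives part of them. Alternatives were RLE scaling, total counts, DESeq2 1.42.0, no filter, genes above 0 in all 6 libraries, all 9 libraries in 1 fit (called the fit with the precipitation libraries), the replicate number as a block, leaving out each library, and a log2 fold change of at least 1. Promoters and gene positions are from RefSeq (GRCh38.p14), matched by symbol. Some genes are not reported here.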

Additional observations from a re-analysis of the deposited data

Results flagged for a closer look

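The entry that names no gene, which no comparison used, held 2.84%, 2.89% and 3.13% of the counts in shCONTROL and 3.17%, 3.44% and 3.75% in shBCLAF1, with means of 2.96% and 3.456%. It was singled out because all 3 shBCLAF1 libraries lay above all 3 shCONTROL libraries. Its part in the results was not tested.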

How the results depend on the processing

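Apart from a minimum fold, the counts of calls moved by more than 1.5 times only when all 9 libraries entered 1 fit, which called 1129 genes higher and 1318 lower. Among the genes called in the report, that fit called 42.9% of those higher and 46.1% of those lower again, and the cause was not tested. A log2 fold change of at least 1 left 307 higher and 389 lower. The other alternatives gave 2574 higher and 2882 lower with RLE scaling, 3244 and 2486 with total counts, 2758 and 3067 in DESeq2, 2402 and 2859 without the filter, and 2664 and 2957 among genes above 0 in all 6 libraries. Leaving out 1 library gave 1975 to 2642 higher and 2171 to 2730 lower. BCLAF1 passed in all 13 alternative fits, and leaving out 1 library put its log2 fold change between -1.58 and -1.42.

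The replicate number as a block gave 2271 higher and 2538 lower. Same-numbered libraries of the groups had correlated deviations of 0.113, 0.0280 and 0.115 over 11195 genes, so they were taken to share only a number. Each library did correlate best with its own number, a hint from the data and not from the design.

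Of 112 genes named with a fold or a test, 90 kept their direction and their side of the threshold in every alternative that tested them. PSPH passed in DESeq2 and with the block, MKI67 and PRTN3 passed with total counts and in DESeq2, and GDF15 passed in DESeq2. Directions turned only in genes that did not pass. When 1 library was left out, log2 fold changes ran from -0.011 to 0.196 in THRAP3, from -0.167 to 0.0074 in MPO, from -0.025 to 0.060 in CEBPA and from -0.026 to 0.028 in RARS1, and RARS1 had 0.050 with total counts. Depth limits genes near the floor of 3 counts per library, whose differences were not detectable here.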

Other observations

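Some classes of genes that the report does not describe were called mainly in 1 direction. They were drawn from gene symbols after the data had been seen. Of 52 tested clustered replication-dependent histone genes, which supply chromatin in S phase, 43 were lower and 0 higher, with a median log2 fold change of -0.60. Their near-identical copies can share reads, so single genes among them are uncertain. Of 25 SNHG genes, which host small nucleolar RNAs in their introns, 14 were lower and 1 higher. Of 284 ribosomal protein pseudogenes, 75 were lower and 2 higher, and they can share reads with their parent genes. Shares lower were 82.7% of the histone genes, 56% of the SNHG genes and 26.4% of the pseudogenes, beside 16.9% of all tested genes. ZNF genes, which encode zinc finger proteins, were called more often higher (98 of 393) than lower (32), with a median of 0.15. That is 24.9% higher and 8.14% lower, beside 20.3% and 21.1% of all tested protein-coding genes. In the fit with the precipitation libraries the lower histone, SNHG and pseudogene counts became 15, 6 and 10, and the ZNF counts became 37 higher and 13 lower.

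Among protein-coding genes, the share called lower was 14.0% in the fifth with the least expression and 32.1% in the fifth with the most, and the share called higher was 11.4% and 23.9%. Genes with more counts are measured with less error, so shares of calls in lists of abundant genes are to be read against these values.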
